A study of Danio rerio with 4 samples.

Results

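A pair of the 4 RNA libraries of male zebrafish skin came from fish of 24 months, and the genes that differ within that pair are described here. Both carry the same labels: age 24 months, male, skin, and the strain AB JxTu Tg(wt1b:GFP), a reporter line that makes green fluorescent protein under control of wt1b sequence. The other libraries, 1 of 5 months and 1 of 30 months, are male skin of the strain AB JxTu without the reporter, so the reporter strain and the age cannot be told apart, while within the pair both are equal. Whether each library holds 1 fish or several, and whether the pair comes from separate fish, is not labelled. The replicate numbers follow the order of deposition and are names only. Levels are CPM, the count of a gene divided by the library total and its TMM scaling factor and set to a common total. Of 32105 genes in the table, the 13182 with a mean of 5 CPM or more over the 4 libraries were compared. Of these, 5339 genes (40.5%) lay at least 2-fold apart between the replicates, with 2646 (20.1%) higher in replicate 2 and 2693 (20.4%) higher in replicate 1.

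Fish skin is a layered organ. Its epidermis is made of living keratinocytes joined by desmosomes and tight junctions, with mucous cells and ionocytes set between them, and it rests on a basement membrane. The dermis below is dominated by fibrillar collagen laid down by fibroblasts and scale-forming cells, carries the bony scales and the pigment cells (melanophores, iridophores, xanthophores), and lies on subcutaneous fat and trunk muscle, so that a piece of skin can hold these tissues in differing parts. Testis, liver and kidney lie inside the body wall and are no part of skin.

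The libraries differed in depth and make-up, and this touches every result that follows. Replicate 1 held 20070292 counts and replicate 2 held 11833498, and 24481 and 19409 genes had at least 1 count. With replicate 1 thinned at random to the total of replicate 2, 23841 genes were still detected in it. The TMM factors were 1.15 for replicate 1 and 0.817 for replicate 2. Scaling by library totals alone moved the median difference of all genes from 0.17 to -0.33 on the log2 scale, and the share of 2-fold genes that stood higher in replicate 2 from 49.6% to 20.5%. Directions below are relative to TMM scaling. Both replicates held the defining transcripts of skin. The basal keratin krt5 was at 26296 CPM in the first replicate and 49234 CPM in the second, and the epithelial cadherin cdh1 at 342 and 315 CPM. Replicate 1 also held transcripts of testis and liver that replicate 2 lacked, described after the skin genes.

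With 1 library on each side there is no test, and no p-value is given. Differences are log2 of replicate 2 over replicate 1 with a prior count of 2, and intervals are exact 95% intervals of a ratio of counts, which cover counting error only. Where a sentence gives a gene's level as a pair of values, the former is replicate 1 and the latter replicate 2. The median absolute difference was 0.81. The middle of the genes lay between -0.73 and 0.85 (quartiles), while 5% lay under -3.29 and 5% over 1.71, so the tail toward replicate 1 was the longer. At 4-fold, 1680 genes (12.7%) were apart, 341 (2.59%) higher in replicate 2 and 1339 (10.2%) higher in replicate 1. For 3919 genes, 29.7% of all, the counting interval itself lay wholly beyond 2-fold. Among the genes compared, 177 had 0 counts in replicate 2 and 0 had none in replicate 1. Set at the bound that 3 counts give, they left 2689 genes at 2-fold and 1336 at 4-fold higher in replicate 1.

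**Figure D1:**
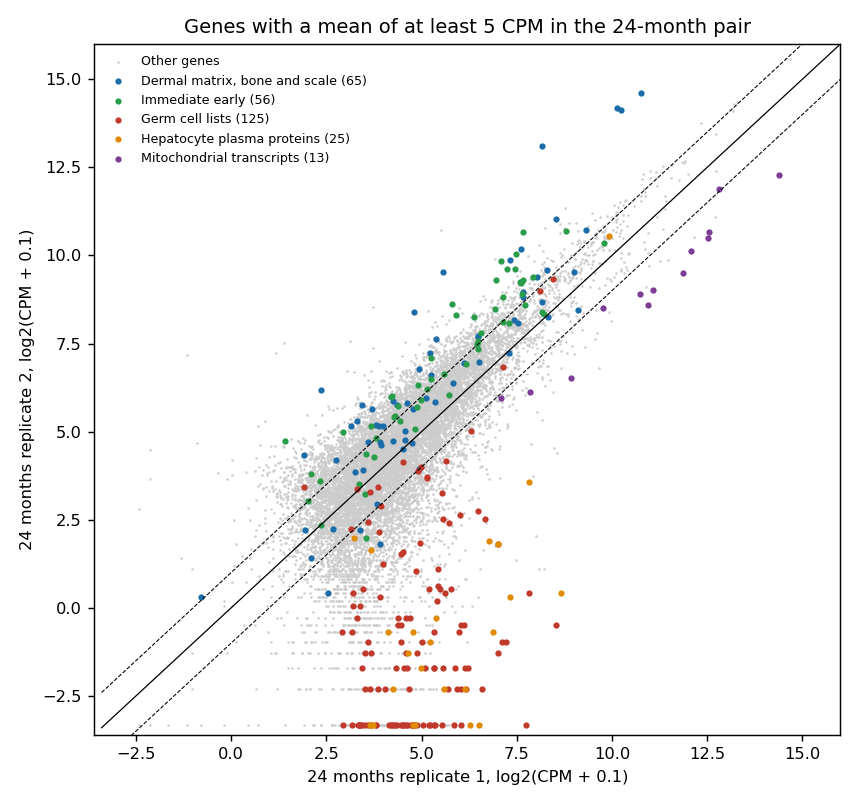
Level of each of the 13182 genes in replicate 1 (x axis) and replicate 2 (y axis) of 24 months, both as log2(CPM + 0.1), with the line of equality solid and the 2-fold lines dashed. The 13 mitochondrial transcripts lie under the solid line, while germ cell and hepatocyte genes reach the bottom edge, where replicate 2 had 0 counts.

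The balance between directions depended on the level of the gene. Of 6409 genes with a mean from 5 to 20 CPM, 1112 stood at least 2-fold higher in replicate 2 and 1899 in replicate 1. From 20 to 100 CPM the numbers were 1148 and 692 of 5348 genes, and from 100 to 1000 CPM 350 and 84 of 1307. Over 1000 CPM they were 36 and 18 of 118. Thus the low genes leaned to replicate 1 and the abundant genes to replicate 2.

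**Figure D2:**
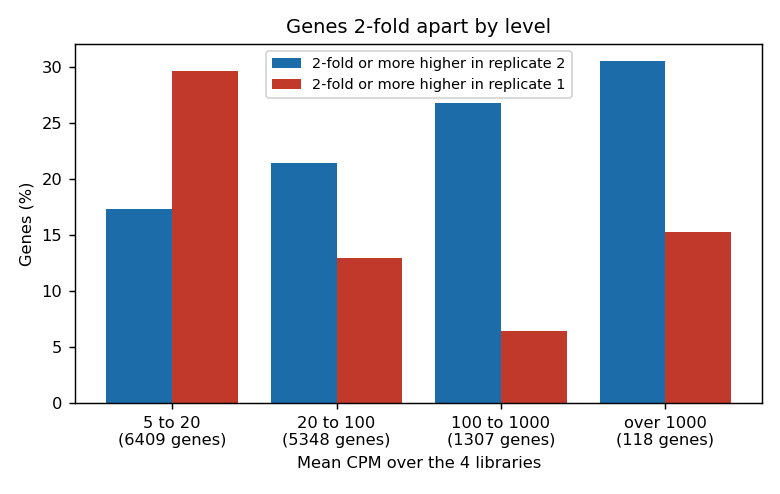
Share of genes (percent, y axis) that stood at least 2-fold higher in replicate 2 (blue) or in replicate 1 (red), by mean CPM over the 4 libraries (x axis). The red bar is the higher only from 5 to 20 CPM, with 1899 against 1112 genes.

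The levels at the other ages were set beside those of the pair, under TMM scaling alone. Of the 2646 genes higher in replicate 2, the 5-month and 30-month libraries both lay nearer the lower replicate for 1605 (60.7%) and nearer the higher for 342 (12.9%). Of the 2693 genes higher in replicate 1, both lay nearer the higher replicate for 1411 (52.4%) and nearer the lower for 159 (5.9%). For another 866 of these (32.2%) the 5-month library alone lay nearer the high replicate 1. In both directions, the genes with both other ages nearer replicate 1 outnumbered those with both nearer replicate 2. Genes passed by their mean over the 4 libraries, so genes low in replicate 2 could pass through the other ages. The other libraries also differ from the pair in age and strain. These counts therefore cannot show which replicate was the unusual one.

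**Figure D3:**
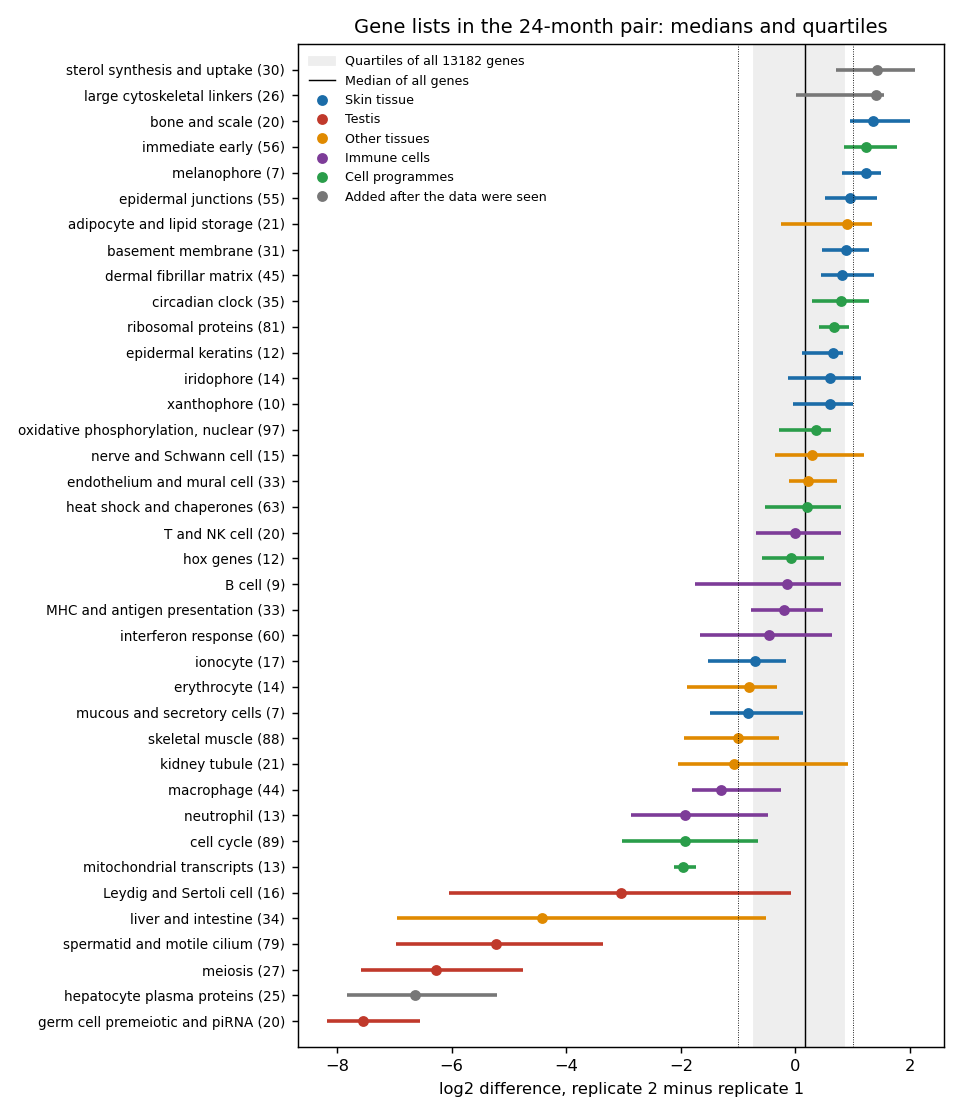
Median (point) and quartiles (bar) of the log2 difference, replicate 2 minus replicate 1, for each gene list, with the number of members at a mean of 5 CPM or more in brackets. The grey band gives the quartiles of all 13182 genes, -0.73 and 0.85. Lists of skin tissue lie mostly right of the line of all genes, and testis lists lie far left of the band.

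The scaffold of the dermis and scales stood higher in replicate 2. The bulk of dermal fibre is type I collagen, made from alpha 1 and alpha 2 chains, and all 3 zebrafish genes differed alike. COL1A2 had 12713 CPM at 5 months, 1130.0 and 18503 CPM in the pair and 1912 CPM at 30 months, a ratio within the pair of 16.4 (interval 16.2 to 16.6). For col1a1a the levels were 1210.0 and 17854 CPM (14.75-fold), and for COL1A1 1729 and 25108 CPM (14.5-fold). Under TMM scaling, replicate 2 thus lay above the 5-month library and replicate 1 below the 30-month library for these genes. Without that scaling, the dermal fibrillar matrix list that holds them took 5.98% of all counts at 5 months and 5.99% in replicate 2. It took 1.04% in replicate 1 and 1.33% at 30 months. The excess of replicate 2 over 5 months therefore depends on the scaling. The minor fibril chain col5a2b stood at 47.5 and 740.0 CPM, and the collagen-binding SPARC at 369.9 and 2099.5 CPM.

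Of 49 members of the dermal fibrillar matrix list, 45 passed the level filter. Of these, 20 stood at least 2-fold higher in replicate 2 and 2 in replicate 1, where 20.1% and 20.4% of all genes did so. The median of the 45 was 0.82 against 0.17 for all genes. The shares of all genes, 20.1% and 20.4%, are the yardstick for every list count below. The summed level of all 49 ran from 52241 CPM at 5 months to 9091 and 73299.7 CPM in the pair and 14272 CPM at 30 months. In replicate 2 and at 5 months most of that sum was type I collagen, and single members of the list differed in size and direction. The small proteoglycan DCN, which coats collagen fibrils, stood at 322 and 307 CPM, and LUM, of the same family, at 172 and 289 CPM. The fibroblast receptor PDGFRA stood at 23.5 and 27.2 CPM, and fibronectin FN1 (ENSDARG00000006526) at 549 and 353 CPM. The 2 exceptions past 2-fold were FBN2, a microfibril gene at 5.78 and 1.24 CPM, and SERPINH1 (ENSDARG00000075954), a copy of the collagen chaperone gene at 14.9 and 3.41 CPM, while its other copy (ENSDARG00000019949) stood at 13.99 and 36.4 CPM. In these bulk samples, fewer cells of a type and less RNA per cell cannot be told apart.

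Scale and bone genes also leaned to replicate 2. Of 31 members, 20 passed the filter, with 15 higher in replicate 2, 1 in replicate 1 and a median of 1.36. COL10A1 (ENSDARG00000101535), the network collagen of mineralising skeleton, stood at 284 and 8739 CPM, a ratio of 30.7 (interval 30.0 to 31.5). Its second copy (ENSDARG00000054753) stood at 161 and 934 CPM. The enamel matrix gene enam stood at 27.6 and 334 CPM, and ambn at 9.82 and 39.3 CPM, with 203 and 59.5 CPM at 5 months. These genes of the mineral matrix were high at 5 months and in replicate 2 and low in replicate 1 and at 30 months. The regulators of bone-forming cells did not follow them alike, as runx2b stood at 30.5 and 109 CPM but SP7 at 3.74 and 4.55 CPM. The 1 member higher in replicate 1 was mmp13b, a collagenase, at 10.3 and 4.55 CPM, and the osteoclast phosphatase ACP5 stood at 14.2 and 7.55 CPM. Summed over the 31 members the level was 974 and 11099 CPM. A gene of a papilin-type matrix protein in no list, paplnb, had 45.3 and 1685 CPM (37.2-fold, interval 35 to 39.7), with 869.9 and 142 CPM at 5 and 30 months.

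**Figure D4:**
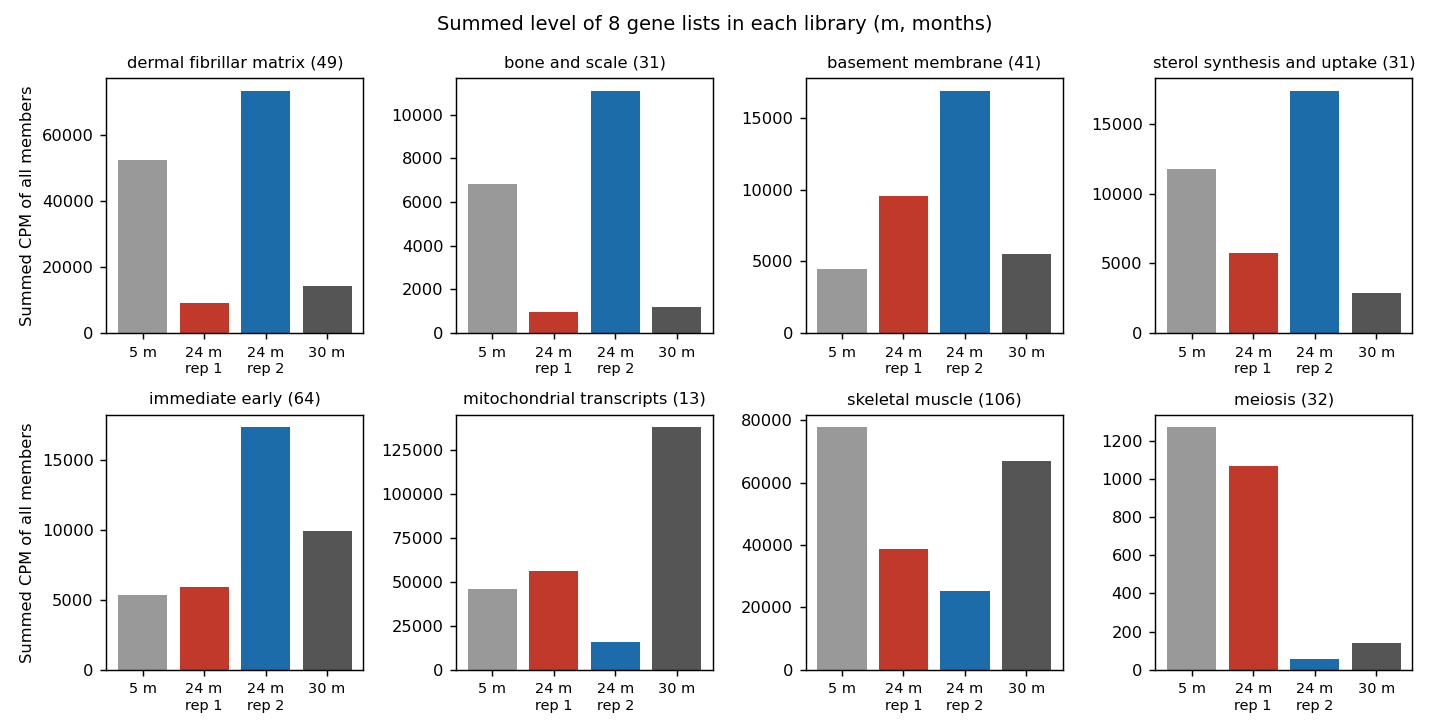
Summed CPM of all members (y axis) of 8 gene lists in each of the 4 libraries, with the number of members in brackets and each axis starting at 0. Dermal matrix and bone and scale genes are high at 5 months and in replicate 2, the sterol list is highest in replicate 2, and the meiosis list is high at 5 months and in replicate 1.

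Epidermal keratins mostly lay within 2-fold, while junction genes leaned to replicate 2. All 12 keratin genes that passed, of 18, lay within 2-fold except icn2, at 137 and 57.4 CPM. The median was 0.66. The suprabasal keratins krt4 and krt91 stood at 3851 and 6504 CPM and at 9270.4 and 17511 CPM. The simple-epithelium keratin krt18b pointed the other way, at 558 and 293 CPM. Keratins took 5.39% of all counts in replicate 1 and 6.84% in replicate 2.

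Among 75 junction genes 55 passed, of which 25 stood higher in replicate 2 and 4 in replicate 1, with a median of 0.95. The claudins that seal the fish epidermis were among the former: cldne stood at 92.9 and 421 CPM, cldnb at 528 and 1929 CPM and cldn1 at 49.5 and 195 CPM. The desmosomal plaque gene DSP (ENSDARG00000022309) stood at 2333 and 3991 CPM. The epithelial adhesion molecule epcam lay the other way at 977 and 337 CPM, as did the cornified envelope gene evpla at 408 and 155 CPM and cldn3d at 20.4 and 0.724 CPM. The junction genes therefore held members 2-fold apart in both directions. TP63, the regulator of basal keratinocytes, stood at 368 and 817 CPM.

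The basement membrane list leaned to replicate 2, with 14 of 31 passing members (of 41) higher in it, 3 higher in replicate 1 and a median of 0.89. The laminin chain lamb3, part of the anchor of basal keratinocytes, stood at 715 and 2375 CPM, and its integrin partner ITGB4 at 2612 and 5901 CPM. Both replicates lay above the 130.5 and 1192 CPM of 5 months. The alpha chain itga6b, which pairs with ITGB4, stood at 2572 and 1708 CPM. The members higher in replicate 1 were low: col17a1a at 3.00 and 0.414 CPM, LAMA1 at 9.17 and 1.55 CPM and FREM3 at 8.47 and 1.45 CPM.

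Pigment cell genes were low in both libraries, and none of the members that passed was 2-fold higher in replicate 1. SLC24A5, an ion exchanger of the melanosome, stood at 1.52 and 36.0 CPM (23.7-fold, interval 16.7 to 34.5), with 2.88 and 3.26 CPM at 5 and 30 months. Replicate 2 alone was high for it. The pigment enzyme TYR and the melanosome fibre gene pmela stood at 5.74 and 13.9 CPM and at 8.99 and 21.2 CPM. Of 14 melanophore genes 7 passed and 4 of them stood higher in replicate 2, while DCT, also of melanin synthesis, was at 0.391 and 0.724 CPM on 9 and 7 counts. The iridophore list had 5 of 14 passing members higher in replicate 2, among them the purine synthesis gene GART at 27.2 and 81.5 CPM, while pnp4a, the purine gene that marks these cells, stood at 16.4 and 11.4 CPM. In the xanthophore list 3 of 10 stood higher, among them gch2, of pteridine synthesis, at 19.3 and 42.7 CPM.

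The lists of mucous cell and ionocyte genes leaned to replicate 1 in their medians. Of 21 mucous and secretory genes 7 passed, with 3 higher in replicate 1 and 1 in replicate 2, and a median of -0.82. With the filter taken over the pair the median was -0.16. The gel-forming mucin muc5.2 stood at 294 and 124 CPM and muc13a at 24.3 and 5.59 CPM. The intelectin itln4, a lectin that binds microbial sugars, stood at 62.0 and 314 CPM and turned the summed level the other way, 582 CPM in replicate 1 and 609 CPM in replicate 2. Ionocyte genes had 6 of 17 passing members (of 37) higher in replicate 1, 0 in replicate 2 and a median of -0.71. The sodium pump chain atp1a1a.4 stood at 4.00 and 0.621 CPM, against 112 CPM at 5 months. The kidney tubule gene SLC34A1 (ENSDARG00000028824) was likewise highest in the 5-month library, with 55.8 CPM, and low in the pair. The 6 genes included SLC4A1 (ENSDARG00000012881), also a member of the erythrocyte list, with 9.56 and 1.65 CPM. Whether the transcripts of atp1a1a.4 and SLC4A1 came from skin ionocytes was not tested. The proton pump chain ATP6V1A (ENSDARG00000076318) stood at 44.1 and 10.6 CPM, but the chain atp6v1e1b lay close, at 51.3 and 45.9 CPM. The most abundant passing member, ATP1B1 (ENSDARG00000013144), also lay close, at 489 and 401 CPM.

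Genes of sterol synthesis and uptake formed the list with the highest median, 1.42. It was drawn up after these values had been seen, so its count is a description. Of 31 members 30 passed, with 19 higher in replicate 2 and 0 in replicate 1. The squalene-forming FDFT1 stood at 122 and 960.0 CPM, a ratio of 7.87 (interval 7.54 to 8.21), with 317 and 33.5 CPM at 5 and 30 months. CYP51A1, which removes a methyl group from lanosterol, stood at 438 and 2615 CPM. The controlling factor srebf2 and its escort SCAP stood at 269 and 1269.9 CPM and at 102 and 437 CPM. Replicate 2 was the highest of the 4 libraries for each of these genes. The steps were not all apart, as FDPS stood at 261 and 321 CPM and MSMO1 at 679 and 1028 CPM.

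Fatty acid genes leaned the same way. In the adipocyte and lipid storage list 9 of 21 passing members (of 30) stood higher in replicate 2 and 1 in replicate 1, with a median of 0.90. FASN, which builds palmitate, stood at 180.0 and 537 CPM and the desaturase SCD at 18.3 and 102.5 CPM. DGAT2, which makes the storage triglyceride, stood at 10.2 and 2.79 CPM, and fabp4a, a fat cell carrier, at 70.7 and 59.7 CPM. LPL, the lipase that draws fat from lipoproteins, has a copy (ENSDARG00000098720) at 9.60 and 31.2 CPM and another (ENSDARG00000087697) at 128 and 107 CPM. Enzymes of fat synthesis and uptake thus lay on both sides.

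Immediate early genes, transcribed within minutes of a stimulus in many cell types, stood higher in replicate 2 in 37 of 56 passing members (of 64) and in replicate 1 in 1, with a median of 1.24. JUNB (ENSDARG00000104773), a subunit of the AP-1 factor, stood at 205 and 1626 CPM, a ratio of 7.95 (interval 7.69 to 8.21), beside 144 and 241 CPM at 5 and 30 months. Its partner FOS stood at 150.6 and 778 CPM and JUN at 174 and 790.4 CPM. The zinc finger factors egr1 and EGR3 stood at 136 and 923 CPM and at 2.56 and 26.5 CPM. The early response gene ier2b stood at 55.6 and 393 CPM, and the antiproliferative BTG2 at 178 and 1059.8 CPM. The member higher in replicate 1 was ATF3, a stress-induced factor, at 11.6 and 3.83 CPM, and klf2a and NR4A1 lay close, at 288 and 337 CPM and at 28.5 and 33.3 CPM.

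Clock genes leaned to replicate 2 as well, with 14 of 35 passing members (of 41) higher in it and 1 in replicate 1. PER2, a light-induced repressor of the clock in zebrafish, stood at 138 and 415 CPM, cry5 at 38.8 and 107 CPM, and nr1d2a, a nuclear receptor of the clock, at 248 and 583 CPM. The activators npas2 and bmal2 stood at 13.5 and 40.4 CPM and at 5.69 and 20.3 CPM. Activators and repressors of the clock thus stood on the same side. The exception past 2-fold was rorcb, at 4.61 and 0.517 CPM.

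Mitochondrially encoded transcripts stood higher in replicate 1. In 12 of 13 genes the difference was at least 2-fold, with a median of -1.97, and the remaining 1 was MT-CO3, at 7184 and 3753 CPM. MT-CO1, a catalytic subunit of cytochrome oxidase, stood at 21497 and 4942 CPM, 4.35-fold higher in replicate 1 (interval 4.31 to 4.39). At 5 and 30 months it stood at 15238 and 49762 CPM, so replicate 2 was the lowest of the 4. The share of all counts was 6.45% in replicate 1 and 1.27% in replicate 2. Nuclear genes of the same respiratory complexes did not follow. Of 97 passing members (of 105), 9 stood higher in replicate 2 and 11 in replicate 1. Both shares were under the 20.1% and 20.4% of all genes. The median of 0.36 turned to -0.14 under library totals. The nuclear ATP5F1B, the catalytic chain of ATP synthase, stood at 905 and 1695 CPM.

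Of 82 ribosomal protein genes 81 passed, with 16 higher in replicate 2, a share near the 20.1% of all genes, and a median of 0.67. RPS2 stood at 3062 and 6119 CPM. The 3 genes higher in replicate 1 included RPL22L1, at 154 and 36.0 CPM, and RPL38, at 98.2 and 30.5 CPM. Heat shock and chaperone genes had 9 members higher in replicate 2 and 10 in replicate 1 of 63 that passed (of 81), with a median of 0.21 that turned to -0.28 under library totals, and the abundant HSP90AB1 stood at 3807 and 6330.4 CPM. The largest difference of that list was DNAJB13, a chaperone of the sperm tail, at 24.7 CPM and 0.

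Transcripts of the testis were present in replicate 1 and at or near 0 in replicate 2. Of the 32105 genes, 300 (0.934%) stood at 10 CPM or more in replicate 1 and at 0.5 CPM or less in replicate 2, and 6 (0.0187%) the other way round. The 300 held 35 members of the spermatid and motile cilium list, 17 of the meiosis list, 14 of the germ cell and piRNA list and 5 of the Leydig and Sertoli list. They also held 14 members of the hepatocyte plasma protein list and 13 of the liver and intestine list, which can share genes, while 205 were in no list. At 5 months 242 of the 300 also stood at 10 CPM or more, and at 30 months 6 did and 172 were at 0.5 CPM or less. Most of these transcripts were thus shared by replicate 1 and the 5-month library.

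PIWIL1, an Argonaute protein that silences transposons in germ cells, had 4971 counts in replicate 1 and 0 in replicate 2. That is at least 566-fold higher by the lower end of the exact interval, which is also used for the other genes at 0. SYCP3, of the synaptonemal complex of meiotic chromosomes, stood at 58.1 CPM and 0, at least 152-fold. The sperm tail dynein dnah5l stood at 373 and 0.621 CPM, 601-fold apart (interval 276 to 1640), with 765 CPM at 5 months and 4.20 CPM at 30 months. Some genes of somatic testis cells followed the same order. The Leydig cell hormone insl3 stood at 25.6 CPM and 0, the steroid enzyme gene cyp11c1 at 12.4 CPM and 0, and DMRT1, a male determinant of germ and Sertoli cells, at 52.3 CPM and 0. The 5-month library held 66.4, 12.2 and 39.9 CPM of these 3, the 30-month library 0, 0.210 and 0.578 CPM. Of the 16 passing Leydig and Sertoli genes, 3 stood higher in replicate 2. They included the most abundant passing member, SOX9 (ENSDARG00000043923), at 47.5 and 129.6 CPM.

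Over all members, with or without the filter, the meiosis list summed to 1068 CPM in replicate 1 and 58.1 CPM in replicate 2, and 0 and 11 of its 32 members were at 0. For the spermatid and motile cilium list the sums were 3318 and 857 CPM, and 1 and 40 of 109 members were at 0. The germ cell list summed to 1668 and 647 CPM, with 0 and 13 of 27 at 0. Sums for the Leydig and Sertoli list lay closer, at 544 and 419 CPM, with 0 and 14 of 32 at 0. In replicate 2 most of the germ cell sum was 1 gene, ZBTB16, at 278 and 504 CPM, and most of the spermatid sum was GAPDHS, at 352 and 643 CPM. By count, 26 of 27 passing meiosis genes stood higher in replicate 1, 73 of 79 in the spermatid list, 17 of 20 in the germ cell list and 10 of 16 (of 32) in the Leydig and Sertoli list. Many of these members passed through the libraries with testis transcripts, so the counts are no support for a difference. The medians of the passing members, with the same limit, were -6.27, -5.23, -7.55 and -3.04. With genes at 0 set at their bound they were -5.91, -5.03, -6.51 and -3.04. Without the filter on level they were -6.04, -4.88, -6.89 and -2.67. With all 4 testis lists left out, 5210 of 13041 genes were still 2-fold apart.

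**Figure D5:**
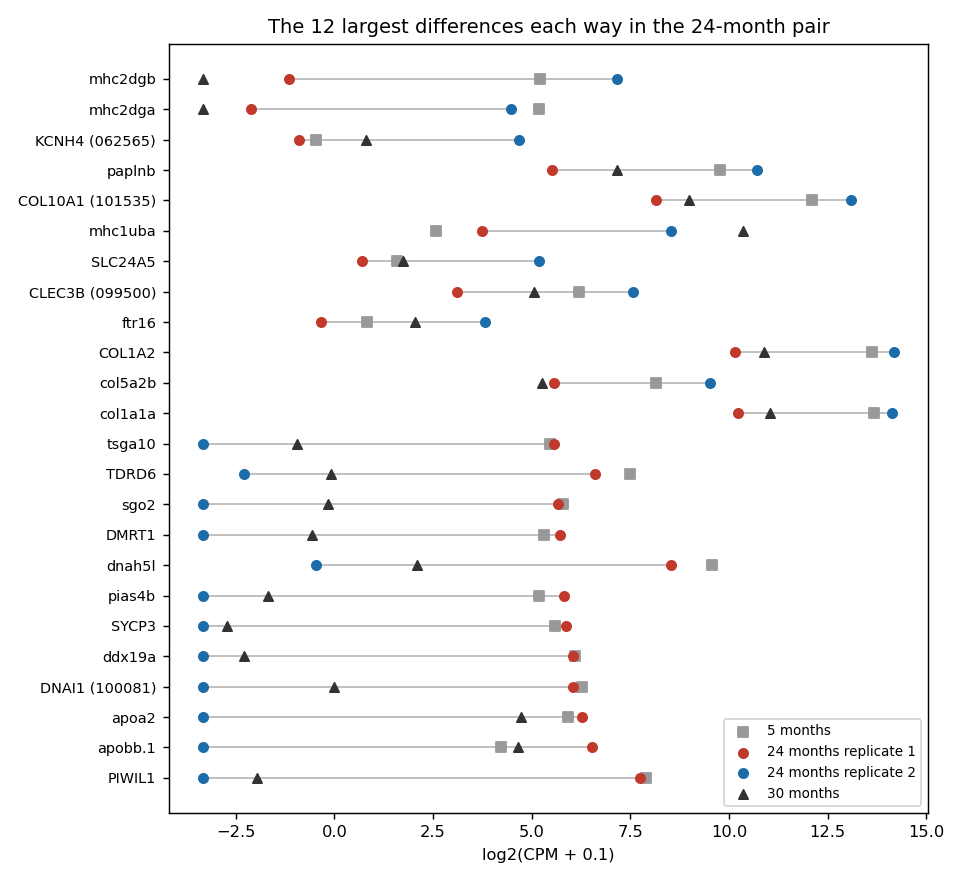
Level in each of the 4 libraries, as log2(CPM + 0.1) on the x axis, of the 12 named genes with the largest difference toward each replicate, with the last digits of the identifier where genes share a symbol. In most of the rows of genes higher in replicate 1, replicate 1 (red) lies beside 5 months (grey) and replicate 2 (blue) at or near the left end, which stands for 0 counts for 10 of the 12.

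Cell cycle genes stood higher in replicate 1 in 61 of 89 passing members (of 111) and in replicate 2 in 1, with a median of -1.93. Of all genes, 20.4% and 20.1% did so. Without the filter on level the median was -2.33. The chromosome untangling enzyme TOP2A stood at 133 and 24.1 CPM, CDK1 at 30.3 and 3.83 CPM and PRC1 (ENSDARG00000005993) at 39.02 and 0.414 CPM. The kinase CDK2 stood at 31.3 and 1.03 CPM, and CDC45, of the replication helicase, at 15.3 and 0.517 CPM. Members such as PRC1 and CDK2 passed the filter through replicate 1 and the 5-month library, at 46.7 and 37.9 CPM in the latter. The count of passing members is therefore no support for a difference. The replication genes PCNA and MCM2 lay closer, at 97.8 and 78.3 CPM and at 59.7 and 45.7 CPM. Dividing cells are found in the basal epidermis and in the testis alike. The cell cycle genes moved with the testis lists across the pair, and the part of the testis transcripts in the cell cycle result was not tested.

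Hepatocyte transcripts followed the same order in the pair. Apolipoprotein B gene apobb.1 had 2110 counts in replicate 1 and 0 in replicate 2 (91.7 CPM against 0), at least 240-fold. It stood at 18.6 and 24.9 CPM at 5 and 30 months. The lipoprotein gene apoa2 stood at 77.6 CPM and 0. Transferrin tfa, the iron carrier of plasma, stood at 404 and 1.24 CPM, beside 53.5 and 87.2 CPM in the other libraries. Replicate 1 was therefore the highest of the 4 for these 3 genes and replicate 2 the lowest. PIWIL1 and SYCP3, by contrast, stood at 237 and 48.4 CPM at 5 months, and at 0.158 and 0.0525 CPM at 30 months.

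Of 52 hepatocyte plasma protein genes, a list drawn up after these values had been seen, 25 passed and 24 of them stood higher in replicate 1. In replicate 2, 24 of the 52 were at 0 and in replicate 1 the number was 0. The fibrinogen chains FGB and FGG stood at 28.4 and 27.5 CPM against 0 each. RBP4, the retinol carrier, was the exception at 979 and 1514 CPM. Most of the members that passed did so through replicate 1, so this count too is no support for a difference. The wider liver and intestine list had 25 of 34 passing members (of 108) higher in replicate 1 and a median of -4.42, with the same limit. Without the filter the medians were -5.15 for the plasma protein list and -2.52 for the wider list. For the wider list the summed level was 2106 and 1901 CPM. The sum is held up in replicate 2 by CYP7A1, the bile acid enzyme gene, at 193 and 1120.2 CPM.

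Some kidney tubule transporters were low in both replicates. The phosphate transporter SLC34A1 (ENSDARG00000028824) stood at 3.65 CPM and 0 and CUBN, which takes up filtered protein, at 3.26 and 0.207 CPM, on 75 and 2 counts (15.8-fold, interval 4.21 to 132). At 5 months they stood at 55.8 and 50.1 CPM. The largest difference among passing members was slc5a8l, at 17.8 CPM and 0 on 410 and 0 counts (at least 46.5-fold). It stood at 9.89 and 0.158 CPM at 5 and 30 months. Of 54 kidney genes 21 passed, with 11 higher in replicate 1 and 5 in replicate 2 and a median of -1.07. Set at their bound, the genes at 0 left 8 higher in replicate 1 and a median of -0.16. With the filter taken over the pair the median turned to 0.93, so the list has no stable direction. The summed level went the other way, 499.8 and 955 CPM, through SLC20A1 (ENSDARG00000010641), a phosphate carrier of many cells, at 274 and 696 CPM.

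Skeletal muscle genes leaned to replicate 1, with 44 of 88 passing members (of 106) higher in it, 3 in replicate 2 and a median of -0.995. The list took 4.45% of counts in replicate 1 and 2.08% in replicate 2, against 8.89% at 5 months and 6.24% at 30 months. The abundant sarcomeric actin actc1b lay close, at 6787 and 5363 CPM. The largest difference among passing members was a troponin gene, TNNI2 (ENSDARG00000005841), at 5.00 and 0.103 CPM, on 115 and 1 counts (48.3-fold, interval 8.5 to 1920). The troponin tnni1d stood at 32.4 and 1.45 CPM, the myosin myhb at 23.03 and 1.03 CPM and the calcium buffer pvalb1 at 357 and 23.3 CPM. The myosin-binding MYBPC1 was near even, at 36.5 and 34.3 CPM. Oxygen carrier mb, by contrast, stood at 40.8 and 116 CPM. Blood genes were few: the globin HBE1 (ENSDARG00000089087) stood at 105 and 71.6 CPM and the erythrocyte carbonic anhydrase cahz at 18.2 and 2.07 CPM, with 6 of 14 passing members (of 27) higher in replicate 1 and 1 in replicate 2.

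Myeloid genes split within their own lists. In the macrophage list 25 of 44 passing members (of 65) stood higher in replicate 1 and 2 in replicate 2, with a median of -1.29. The largest difference was the apolipoprotein gene apoc1, at 46.2 and 0.103 CPM on 1064 and 1 counts, with 18.8 and 9.71 CPM at 5 and 30 months. Like the hepatocyte gene apobb.1, it was highest in replicate 1 and lowest in replicate 2. Which tissue the apoc1 transcript came from was not tested. The granulin grna.1 stood at 255 and 4.03 CPM, 63.3-fold (interval 46.3 to 89.1), and ACOD1, the itaconate enzyme of activated macrophages, at 92.3 and 2.07 CPM. At 5 and 30 months both stood under 6 CPM, so replicate 1 was alone in holding them high. Both passed the filter through replicate 1, so the count of passing members is no support for a difference. Without the filter on level the macrophage median was -1.37. The lysosomal marker cd68 stood at 180.1 and 85.0 CPM. Other members lay close or the other way, with csf1rb at 4.48 and 4.55 CPM, LCP1 at 38.7 and 64.9 CPM and apoeb at 549.7 and 1666 CPM. Summed over the list the level was 6328 and 8116 CPM, against the sign of the median. The sum is held up in replicate 2 by apoeb and by cd74a, at 1819.86 and 3820.7 CPM. The gene cd74a is the most abundant passing member and is also in the MHC list. The sum therefore does not show that macrophage transcripts as a whole stood higher in replicate 2.

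Neutrophil genes had 9 of 13 passing members (of 21) higher in replicate 1 and 1 in replicate 2. The lipoxygenase gene alox5b.2 stood at 89.3 and 1.14 CPM. It passed the filter through replicate 1, so the count that includes it is no support for a difference. The neutrophil median was -1.92, and -2.1 without the filter on level. LECT2 (ENSDARG00000033227), a chemotactic protein also made by liver, stood at 36.6 and 0.621 CPM. The granule genes lyz and npsn were low, at 7.82 and 2.90 CPM and at 9.86 and 4.65 CPM, against 37.6 and 49.2 CPM at 5 months. Granule markers thus did not share the size of the difference of alox5b.2.

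Some antibody and interferon genes stood far higher in replicate 1, though the few passing members of the B cell list had a median near even. The immunoglobulin M heavy chain ighm stood at 299 and 2.07 CPM, a 144.7-fold difference (interval 93.6 to 237), beside 3.74 and 11.2 CPM at 5 and 30 months. The signalling gene blnk stood at 13.1 and 0.621 CPM. XBP1, a factor of plasma cells and of secretory cells at large, lay the other way at 154 and 396 CPM. Of 64 B cell genes 9 passed, with 2 higher in replicate 2, 3 in replicate 1 and a median of -0.15. At a minimum of 1 CPM the median was -0.95 over 17 members, and without a filter -1.46 over 44. Of all 64, 20 were at 0 in replicate 1 and 42 in the shallower replicate 2. Of 60 passing interferon response genes (of 80), 25 stood higher in replicate 1 and 9 in replicate 2, with a median of -0.46. The antiviral GTPases mxc and mxf stood at 179 and 2.48 CPM and at 80.7 and 0.931 CPM, and ifi44a8 at 38.6 CPM and 0. The family was not uniform, since mxa stood at 29.2 and 30.5 CPM. Members such as mxf and ifi44a8 passed the filter through replicate 1, so the interferon count is no support for a difference. Without the filter on level the interferon median was -0.69.

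T and NK cell genes lay near even, with 3 of 20 passing members (of 48) higher in replicate 2 and 4 in replicate 1. Neither share exceeded that of all genes, 20.1% and 20.4%. The median of -0.0076 turned to 0.013 with DESeq2 size factors. The T cell kinases lck and ZAP70 stood at 10.8 and 18.3 CPM and at 17.99 and 24.6 CPM. The killer cell gene prf1.5 stood at 8.65 and 0.827 CPM, and il7r, a receptor of resting lymphocytes, at 15.99 and 3.31 CPM. SATB1 lay the other way at 4.74 and 16.1 CPM, and the most abundant passing member, RUNX3, stood at 82.1 and 138 CPM.

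Among the named genes that passed, the largest differences toward replicate 2 were in mhc2dgb and mhc2dga, both MHC genes. MHC genes present antigen and vary between fish in which copies they carry. The class II genes mhc2dgb and mhc2dga had 8 and 3 counts in replicate 1 and 1385 and 215 in replicate 2. The ratio was 412 for mhc2dgb (interval 209 to 956) and 171 for mhc2dga (interval 57.6 to 834). They stood at 37.1 and 36.6 CPM at 5 months, and both were at 0 at 30 months. The class I gene mhc1uba stood at 5.90 CPM at 5 months, 13.2 and 368 CPM at 24 months and 1318 CPM at 30 months. Other class I genes went the other way, with mhc1zba at 785 and 223 CPM and mhc1zca at 16.9 and 1.03 CPM. The class II chaperones cd74a and cd74b, which are not among these variable copies, stood at 1819.9 and 3821 CPM and at 943 and 1431 CPM. Over 33 passing members of the list (of 57), 6 stood higher in replicate 2 and 8 in replicate 1. These shares lay near the 20.1% and 20.4% of all genes. Reads of near-identical MHC copies can be split or lost in counting.

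Vessel and nerve genes lay close in the median. For endothelium and mural cells it was 0.22, turning to -0.31 under library totals. Of 33 passing members (of 39), 7 stood higher in replicate 2, near the 20.1% of all genes, and 2 in replicate 1. The vessel receptor KDR stood at 28.0 and 28.2 CPM, and tek, a receptor of vessel stability, at 12.7 and 69.8 CPM. In the nerve and Schwann cell list 5 of 15 passing members (of 45) stood higher in replicate 2 and 2 in replicate 1, with a median of 0.28 that turned to -0.37 under library totals. The myelin gene PMP22 stood at 101 and 74.9 CPM and the neurofilament NEFL at 4.48 and 15.8 CPM. Hox genes, which mark position along the body, held 12 passing members of 47, with 1 each way past 2-fold: HOXC10 stood at 5.39 and 1.34 CPM and HOXD10 at 2.56 and 5.79 CPM. The list was near even, with a median of -0.07.

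The gene of the reporter, wt1b, had 172 counts in replicate 1 and 0 in replicate 2 (7.47 CPM against 0, at least 19.4-fold). It stood at 1.15 and 0.788 CPM in the libraries without the reporter. It did not reach a mean of 5 CPM. Which tissue the wt1b transcript came from was not tested, and the transcript of the reporter itself was not analysed here. With the lists of testis and of other tissues left out, 5086 of 12815 genes (39.7%) lay at least 2-fold apart, with 2609 higher in replicate 2 and 2477 in replicate 1. By class, 87 of 218 passing genes of the skin lists stood higher in replicate 2 and 20 in replicate 1. For the immune lists, with the limit given above on members that passed through replicate 1, the numbers were 22 and 74 of 175. For genes in no list they were 2418 and 2286 of 11987.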

How the data were processed

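Skin of male zebrafish gave 4 RNA-seq libraries, and an Illumina multiplex mRNA kit was used, per the labels' protocols. Per the submitters' processing notes, the tools were CASAVA 1.7, STAR 2.4.1d and featureCounts 1.4.6-p4 and the build GRCz10, with the annotation release and strand setting not given. The deposited counts are whole reads per gene. The authors also deposited values under the name RPKM, which were handled as a score, since its divisor cycles through the rows with a period of 24, and it served only as an alternative.

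Counts were scaled with TMM factors (edgeR 4.0.16 in R 4.3.3, after filterByExpr, 21535 genes) to CPM, and log2 differences of replicate 2 minus replicate 1 used a prior count of 2. The minimum was a mean of 5 CPM. Each side is 1 library, so no test was made. Intervals are exact 95% conditional binomial intervals and cover counting error only. For list counts and medians at the bound, a count of 0 was set to 3 counts, which are 0.130 CPM in replicate 1 and 0.310 CPM in replicate 2. The least folds of single genes at 0 are the lower ends of the exact intervals. The common biological coefficient of variation, to which only this pair contributes, was 0.765. The counting was tested on simulated data.

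Symbols come from a table of gene names (26269 genes). Many follow human names, and genes that share a symbol (4144) are given with their identifier where that bears on a value. Reads of paralogues or overlapping genes may be split or mixed. Lists were matched by symbol, and 22 matches were removed by name. The members, the 35 lists and the rules were chosen with earlier results of these data known, and 3 further lists (sterol synthesis, hepatocyte plasma proteins, large cytoskeletal linkers) after these values were seen. Clone names were passed over in choosing named genes, which are the 12 largest differences each way, in each list the most abundant member and up to 3 with the largest difference, up to 8 genes present in 1 replicate only, and wt1b. Other list members were named after their values were seen. Alternatives were other scalings, filters, prior count, thinning and the second table. No coordinates or sequences are given, as no genome of this build was used.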

Additional observations from a re-analysis of the deposited data

How the results depend on the processing

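The number of genes 2-fold apart, and the number on each side, stayed within 1.5 times of the values given under DESeq2 size factors, upper quartile scaling, TMM over the pair alone, a prior count of 0.5, a filter over the pair, thinning of replicate 1, and with the lists of testis and other tissues left out. Library totals alone gave 1030 genes higher in replicate 2 and 3988 in replicate 1. A minimum of 1 CPM gave 8677 genes apart, 5271 of them higher in replicate 1, and no filter gave 12497 and 8684. Among the genes 2-fold apart, 49.6% stood higher in replicate 2 in the main setting. That share was 39.3% at a minimum of 1 CPM, 30.5% without a filter and 40.5% under upper quartile scaling. The second table as deposited gave 399 and 6961, and with its median set to that of the counts, an alternative chosen after seeing the data, 3009 and 2702. The biological coefficient of variation was 0.637 at the filter of 5 CPM. A lower minimum takes in more genes, but the share apart rose too, from 40.5% to 47.7% at 1 CPM and 50.7% without a filter. The second table divides the libraries by differing values. The causes of these changes were not tested. List medians turned sign under library totals for endothelium (-0.31), nerve (-0.37), nuclear respiratory genes (-0.14) and heat shock (-0.28). They did so over the pair filter for T and NK cells (0.29) and kidney (0.93), with DESeq2 size factors for T and NK cells (0.013), at 1 CPM for nerve (-0.22) and hox (0.10), and without a filter for nerve (-0.60). The second table turned dermal matrix (-0.38), basement membrane (-0.26), keratins (-0.76), junctions (-0.39), melanophore (-0.13), iridophore (-0.80), xanthophore (-0.46), endothelium (-1.4), nerve (-0.66), adipocyte (-0.44), ribosomal (-0.58), nuclear respiratory (-1.03), heat shock (-1.06) and clock genes (-0.56), and with its median reset kidney (0.38), endothelium (-0.14) and hox (0.16). Counting each list under each alternative apart, a further 45 medians moved by over 0.5 on the log2 scale with their sign kept, and 346 moved by less. Over the pair filter mucous cells went from -0.82 to -0.16 and Leydig and Sertoli cells from -3.04 to -1.75. Without a filter B cells went from -0.15 to -1.46, mucous cells to -1.56 and liver and intestine from -4.42 to -2.52. No paired analysis was possible because the labels give no replicate numbers and each side is 1 library, and leaving out a library left no difference to compute. Depth limits what a low count in replicate 2 shows.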

Other observations

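The list of large cytoskeletal linkers, very long proteins that tie the cell cortex and junctions to the cytoskeleton, was drawn up after these values were seen. Of 29 members 26 passed, with 14 higher in replicate 2, 3 in replicate 1 and a median of 1.41. The non-muscle myosin MYH9 (ENSDARG00000001014) stood at 466 and 1955 CPM and the dynein motor chain DYNC1H1 at 294 and 1124 CPM. The giant protein gene ahnak lay the other way, at 6641 and 2200.5 CPM, as did pleca, a keratin linker, at 496 and 226 CPM. Their summed level was 14190.4 and 19696 CPM.

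By gene length, taken from the ratio of the deposited tables, the median difference was 0.07, 0.15, 0.19 and 0.27 in 4 groups of genes from the shortest to the longest. The share higher in replicate 1 was 26.4% in the shortest group and 17.1% in the longest, while the share higher in replicate 2 was 21.3% and 19.1%.

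Outside the lists, CLEC3B (ENSDARG00000099500), a tetranectin-type gene, stood at 8.56 and 189 CPM, ftr16, of a fish family of TRIM genes, at 0.695 and 14.1 CPM, and KCNH4 (ENSDARG00000062565), a potassium channel gene, at 0.435 and 25.3 CPM.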
